A study of Mus musculus with 2 samples.

Results

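The genes described here are the cytosolic aminoacyl-tRNA synthetases together with enzymes and regulators of the ATF4 amino acid response. They were picked by gene symbol, under a rule set with earlier results of these data known. Of the 18193 genes named singly on the array, 37, carried by 83 probe sets, met the rule. Of the 39 symbols sought, Dars (aspartyl-tRNA synthetase) and Pycr1 (a proline synthesis enzyme) had no probe set with a single symbol and are not analysed here. The members were 19 synthetases and 18 other genes, namely 5 of amino acid synthesis, 4 of serine-linked one-carbon metabolism, 7 stress regulators and 2 genes of endoplasmic reticulum stress. All 37 had signal above the floor on both arrays, where the floor of 73.7 signal units stands for the level below which values are not ordered.

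The series asked how gene expression in lung vascular cells differs between old and young C57BL/6J mice once a lung has been partly removed. All mice of both groups had the left lobe resected, and the cells were flow-sorted out of the right lobes that were left. One group is old mice and the other young mice, with 1 Affymetrix array each. The labels used here name no ages, no sort markers, no time since surgery and no number of animals behind an array. With 1 array a group no difference has a replicate check and no test was possible, so genes are counted by a fixed rule of 2-fold, and the number of arrays limits the precision of every value. All log2 ratios are old minus young, so a negative ratio means a higher signal on the young array. Probe sets of the same gene disagreed with an SD of 0.42 in log2 ratio over 4514 genes, which describes the probes and not the mice.

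Aminoacyl-tRNA synthetases join each amino acid to its transfer RNA, the step that sets the genetic code in protein synthesis. When amino acids run short or proteins misfold, kinases phosphorylate the initiation factor eIF2alpha, general translation slows and the transcription factor ATF4 is made from an mRNA that is then translated better. ATF4 acts with C/EBP partners on genes for serine, asparagine and proline synthesis, for amino acid transport, for many synthetases and for feedback regulators. Much of this control acts on translation of the Atf4 mRNA, which an expression array does not see. In endothelium, serine and one-carbon enzymes are known for supplying nucleotides and haem during vessel growth.

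The sorted cells carried endothelial markers on both arrays, with Pecam1 at 6049 signal units in old and 6239 in young cells and Cdh5 at 12534 and 9951. All 10 pan-endothelial markers were above the floor on both arrays, but their signals were not matched. By 2-fold or more, 5 were higher on the old array, with Robo4 (9.12-fold) and Tek (5.91-fold) the furthest. Emcn was 2.17-fold higher on the young array, and the median of the 10 was 0.85. The arrays also differed in markers of other cells. On the old side by 2-fold or more were 9 of 10 measured leukocyte markers (summed signal 15044 old, 1964 young), 9 of 10 macrophage markers (21401 and 675), 7 of 8 fibroblast markers (30763 and 8574, with Fn1 alone at 7755 and 8245) and 8 of 8 hepatocyte markers (13658 and 105). The medians of these lists were 3.16, 4.48, 3.47 and 2.47. Of the defining hepatocyte and leukocyte markers, Alb, Ttr, Apoa1, Ptprc, Cd52 and Tyrobp were below the floor on the young array. Alb stood at 8900 in old and 20.5 in young cells. Of the 10 macrophage markers 3 were above the floor on both arrays, while Vsig4 (2707 old) and Clec4f (2442 old) were below it on the young. Toward the young array lay 5 of 7 lymphatic endothelial markers (median -5.23), Prox1 and Nts being below the floor on the old array (at least 93.4-fold and at least 141-fold), and 7 of 8 markers of cycling cells (4431 and 15482). Hepatocyte markers on the old array stand apart from the description of the cells as lung vascular, and the origin of this signal was not tested. The part of all these marker differences in the results below was not tested. In sorted bulk RNA other kinds of cells, fewer cells of a type and less RNA per cell cannot be told apart.

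Among the 37 members, 8 were 2-fold or more higher on the young array and 2 on the old, and 27 lay within 2-fold. Over all 12105 measured genes 11.3% were called toward the young array and 16.0% toward the old, and 72.7% lay within 2-fold. The 8 young-side members were Phgdh, Psat1, Asns, Aldh18a1, Mthfd2, Shmt2, Atf5 and Trib3, and the 2 old-side members were Wars and Herpud1. The median log2 ratio of the members was -0.41, against 0.03 over all measured genes, and 28 of the 37 had a ratio below 0 (47.8% of all genes did). The members did not move as a block. Of the 5 synthesis enzymes 4 were called toward the young array, with Psph (-0.47) within 2-fold. Of the 19 synthetases 18 lay within 2-fold, and the 2 genes of endoplasmic reticulum stress had ratios above 0. Of the 10 called members, 9 had several measured probe sets, and in all 9 these lay on one side of 0. In 6 of the 9 every measured probe set was at 2-fold or more. Aldh18a1, Shmt2 and Wars each had probe sets under it, down to -0.09, -0.55 and 0.94. At 1.5-fold 14 members were called toward the young array (20.7% of all genes were) and 4 toward the old (3029 of 12105 genes were), and 45.7% of all genes passed this size either way. At 3-fold 6 and 2 members were called, against 5.86% and 9.86%.

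**Figure D1:**
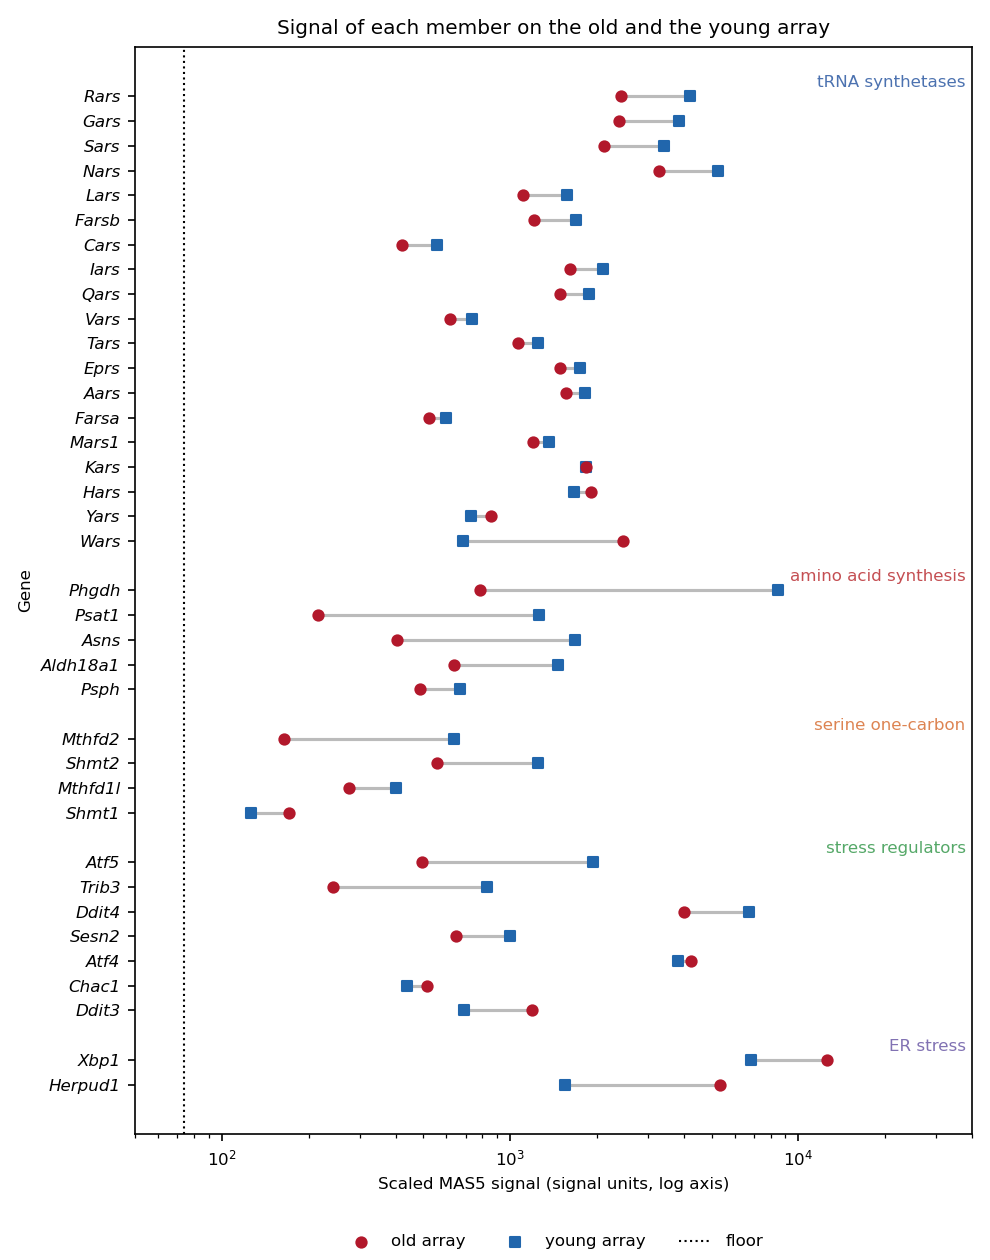
Scaled MAS5 signal (log axis, signal units) of each of the 37 members on the old array (red circles) and the young array (blue squares), 1 array each, in the 5 groups of members, with the floor of 73.7 as a dotted line. The grey bars are longest for Phgdh, Psat1 and Asns, with the young array higher, and Wars and Herpud1 run the other way. Positions along the axis are not comparable between genes, since each probe set has its own response.

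Since ATF4 binds with C/EBP partners at a composite element, promoters of the members were searched for its letters, TGATGNAA, on both strands. The windows were taken from RefSeq (GRCm38.p6) and run from 250 bases before to 50 bases after each start site. Of the 37 members 30 had an entry, and 9 of these 30 held the letters, against 4.51% of all 27025 genes in the table. Among the 9 were Asns, Chac1, Gars, Herpud1, Iars, Tars, Trib3 and Yars, and there were 10 matches in all. The sites of the called genes, and of genes near equal on both arrays for contrast, are shown with the motif in capitals and 11 flanking bases on each side, read 5′ to 3′ along the gene's strand.
Asns: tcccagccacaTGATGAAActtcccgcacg
Trib3: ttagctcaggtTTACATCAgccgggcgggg
Herpud1: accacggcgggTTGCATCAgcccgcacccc
Chac1: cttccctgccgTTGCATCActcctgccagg
Tars: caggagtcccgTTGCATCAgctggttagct

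The Asns piece lies at chr6:7693214-7693243 on the minus strand, and its motif begins 23 bases before the start site. The Trib3 piece, chr2:152344028-152344057 on the minus strand, has the motif 14 bases after the start site, inside the transcript. The Herpud1 piece is at chr8:94386306-94386335 on the plus strand, 112 bases before the start. The Chac1 piece is at chr2:119351038-119351067 (plus strand, 193 bases before) and the Tars piece at chr15:11399655-11399684 (minus strand, 15 bases before). Of the 10 matches, 6 read TTGCATCA or its reverse complement.

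Genes with a match lay on both sides and between. Of the 9 genes with a match, 2 were called toward the young array (Asns and Trib3), 1 toward the old (Herpud1) and 6 lay within 2-fold. Of the 21 genes with an entry and no match, 6 were called toward the young array, among them Phgdh, Psat1 and Mthfd2, and 0 toward the old. The shares of all measured genes were 11.3% toward the young array and 16.0% toward the old. A match is a description of letters and not of binding, and no match says only that the letters are not in this window. The endoplasmic reticulum stress element, searched on both strands, was found in 0 of the 30 member genes and in 0.137% of all genes. No promoter was looked at for Cars, Hars, Lars, Nars, Rars, Vars and Wars.

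Enzymes of amino acid synthesis showed the widest differences of all member groups. Phgdh, which makes the first committed step from glycolysis to serine, had a signal of 788 in old and 8500.2 in young cells, 10.8-fold higher on the young. It ranked 108 of 12105 genes toward the young array. All 4 of its single-symbol probe sets were on the young side, with ratios from -3.57 to -2.43. Each of them is of a kind whose probes can match several transcripts (identifiers ending in _x_at or _s_at, called shared-sequence probe sets here). In 2 further probe sets, Phgdh is listed together with the loci Gm8096 or Gm6756. Their ratios were -4.16 and -2.34, so related loci could share the Phgdh signal.

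Psat1, the aminotransferase of the next step to serine, had 216 in old and 1261 in young cells, 5.84-fold higher on the young. Its second probe set gave 12.2-fold. Psph, which releases serine in the last step, stood at 485 and 670 and was within 2-fold (1.38-fold, ratio -0.47), by a single probe set. The serine pathway was therefore uneven, with its first and second enzymes called and its last enzyme not.

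Asns, which makes asparagine from aspartate, had 404 in old and 1679 in young cells, 4.15-fold higher on the young, and its other probe set gave 5.88-fold. Its promoter holds the TGATGAAA site shown above. Aldh18a1, which opens the route from glutamate to proline, had 641 and 1470, 2.29-fold higher on the young array. The 5 probe sets of Aldh18a1 spread from -1.58 to -0.09, and their mean of -0.90 was within 2-fold. In all, 4 of 5 synthesis enzymes were called toward the young array (11.3% of all measured genes were) and 0 toward the old (16.0%). The group median was -2.05. All 14 of their probe sets had a ratio below 0.

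One-carbon enzymes, which pass the carbon of serine to folates, included 2 mitochondrial enzymes called toward the young array. Mthfd2, the mitochondrial dehydrogenase and cyclohydrolase that is high in growing cells, had a signal of 164 in old and 640.1 in young cells, 3.89-fold higher on the young. Its second probe set gave 2.21-fold, and with the floor at the 75th percentile its ratio was -0.39 and not called. Shmt2, the mitochondrial enzyme that splits serine into glycine and a one-carbon unit, had 558 and 1244, 2.23-fold higher on the young array. Its other measured probe sets gave 1.64-fold and 1.46-fold, so its call rests on the brightest of 3 probe sets. Without shared-sequence probe sets its ratio was -0.71. Mthfd1l, the mitochondrial formate-releasing enzyme, was within 2-fold at 277 and 403.

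Shmt1, the cytosolic counterpart of Shmt2, gave opposite answers by probe set. Its brightest probe set had 171 in old and 127 in young cells (ratio 0.44), while 2 others had ratios of -0.89 and -0.95. Signals of all 3 were between 76.3 and 171, close to the floor, and no direction is given for Shmt1. The group thus had 2 of 4 members called toward the young array and 0 toward the old, with a median of -0.85. Of all measured genes 11.3% and 16.0% were called these ways.

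Most synthetases differed little between the arrays. Of 19 synthetases, 18 were within 2-fold (72.7% of all measured genes were), 1 was called toward the old array and 0 toward the young. With Wars left out the other 18 ranged from -0.80 to 0.23, with a median of -0.29 and an SD across genes of 0.29. With Wars kept in, the SD of the 19 was 0.57. Over all genes above the floor on both arrays, with none left out, the SD was 1.13. The ratios of the synthetases leaned to one side: 16 of 19 were below 0 (47.8% of all measured genes were). For 12 of 19 the size of the ratio was under the probe-set SD of 0.42, so these differences are no larger than the disagreement between probe sets of 1 gene. The signal-dependent normalization (loess) moved the synthetase median from -0.25 to -0.16 and left 15 of 19 below 0, with Kars, the lysyl-tRNA synthetase, turning from -0.01 to 0.04.

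The largest young-side difference among them was that of Rars, the arginyl-tRNA synthetase, with 2416 in old and 4215 in young cells (1.74-fold). Gars, which charges glycine transfer RNA, followed with 2381 and 3864 (1.62-fold). Sars, for serine, had 2119 and 3425 (1.62-fold), and both its probe sets gave nearly the same ratio, -0.69 and -0.67. Nars, for asparagine, had 3288 and 5261 (ratio -0.68). These 4 were the only synthetases past 1.5-fold toward the young array, a size that 20.7% of all genes reached.

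Lars (leucine), Farsb (the beta subunit for phenylalanine), Cars (cysteine), Iars (isoleucine) and Qars (glutamine) lay between -0.51 and -0.34. Vars (valine), Tars (threonine), Eprs (the fused enzyme for glutamate and proline), Aars (alanine), Farsa (the alpha subunit for phenylalanine) and Mars1 (methionine) lay between -0.25 and -0.18. Kars was at -0.01, with 1825 in old and 1838 in young cells. Hars (histidine) and Yars (tyrosine) were slightly above 0, at 0.19 and 0.23. The probe sets of Farsa, Farsb, Hars and Qars fell on both sides of 0, so none of these 4 has a settled direction. Several synthetases sit together in the multi-synthetase complex, and the 7 measured members of that complex (Eprs, Iars, Kars, Lars, Mars1, Qars and Rars) had a median of -0.34. The 12 other synthetases had a median of -0.24, and the difference between these medians was not tested. This split was made after the values were seen.

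Wars, the tryptophanyl-tRNA synthetase, stood apart from the other 18. It had 2453 in old and 686 in young cells, 3.58-fold higher on the old, and ranked 990 of 12105 genes toward the old array. Its 4 probe sets gave ratios of 0.94, 1.09, 1.61 and 1.84, all on the old side. The larger pair came from shared-sequence probe sets, and without these the fold was 2.13. Wars is known as the synthetase whose transcription interferon gamma induces. In a list of interferon gamma response genes written after the data were seen, 10 of 10 measured genes were called toward the old array (median 4.31, summed signal 66954 old and 6601 young). Irf1 (19.4-fold) and Gbp2 (5.57-fold) were among them. The part of that response in the Wars value was not tested.

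**Figure D2:**
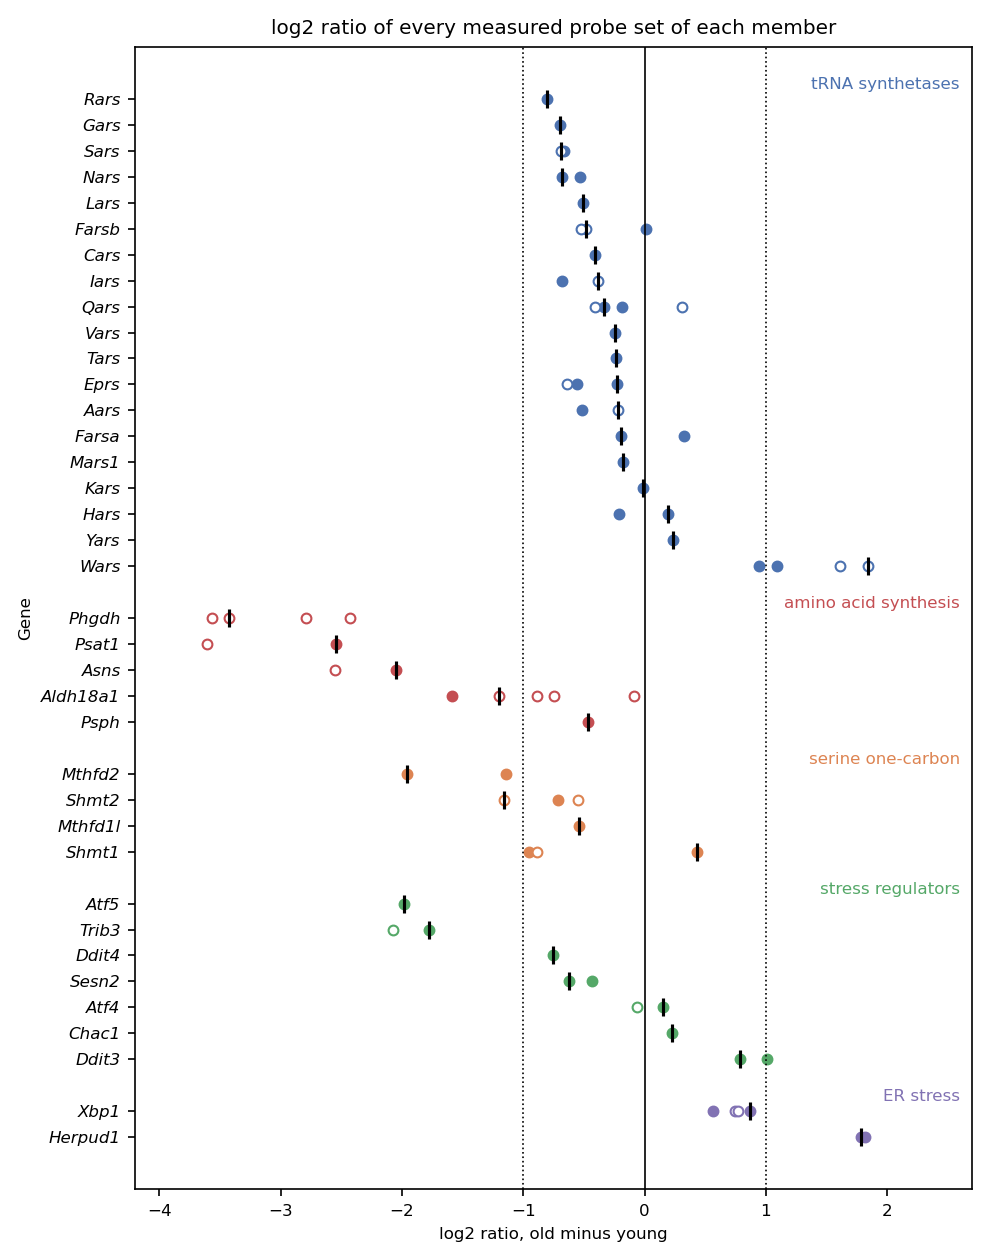
log2 ratio (old minus young) of every measured probe set of each member, 75 in all, coloured by group, with open circles for shared-sequence probe sets, a black bar on the probe set that stands for the gene, and dotted lines at 2-fold. All 14 probe sets of the synthesis enzymes lie left of 0 and all 4 of Wars lie right of it, while those of Farsa, Farsb, Hars, Qars, Shmt1 and Atf4 lie on both sides.

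Atf4 itself, the transcription factor at the head of the response, had nearly equal signal on both arrays. Its brightest probe set had 4250.4 in old and 3831 in young cells (1.11-fold), and the other measured one had a ratio of -0.06. Among regulators downstream of it, 2 were called. Atf5, a related transcription factor, had 493 in old and 1944 in young cells, 3.95-fold higher on the young, by its only probe set. Trib3, a pseudokinase that restrains ATF4 and Akt, had 243 and 832, 3.43-fold higher on the young, and its second probe set gave 4.22-fold. With the floor at the 75th percentile the ratio of Trib3 was -0.76 and not called. Its site shown above lies just inside the transcript.

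Ddit3, which encodes CHOP, the factor tied to cell death under stress, had 1193 in old and 690 in young cells. It was within 2-fold (1.73-fold), while its dimmer probe set, below the floor on the young array, gave at least 2.02-fold. Chac1, which degrades glutathione and is a classic target of ATF4 and CHOP, had 513 and 437, a ratio of 0.23, and its promoter holds the same TTGCATCA letters as that of Herpud1. Ddit4 and Sesn2, which restrain the growth kinase complex mTORC1, had ratios of -0.75 (4003 old, 6744 young) and -0.62 (646 and 996), both within 2-fold. In all, 2 of 7 stress regulators were called toward the young array and 0 toward the old, with a median of -0.62. The shares of all measured genes were 11.3% and 16.0%, and with 7 genes these counts are too small to set apart from them.

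Herpud1 and Xbp1, genes of the unfolded protein response of the endoplasmic reticulum, both had ratios above 0. Herpud1, which helps remove misfolded proteins, had 5350.1 in old and 1549 in young cells, 3.45-fold higher on the old, with 3.52-fold by its second probe set. Xbp1, the transcription factor activated by splicing of its mRNA under stress, had 12520 and 6856 (1.83-fold). Its 4 probe sets ranged from 0.57 to 0.87, all within 2-fold. The array values do not separate spliced from unspliced Xbp1. Plasma cells are rich in Xbp1, and the 5 measured B and plasma cell markers were above the floor on the old array only. Their signals there were low, from 74.9 (Cd79a) to 148 (Ms4a1), close to the floor of 73.7. On the young array all 5 were below the floor. Of the 5 markers, 1 was called toward the old array (median 0.61), and 4 were with the floor at the 25th percentile. The part of such cells in the Xbp1 value was not tested. Immediate early genes, which respond within minutes to many stimuli, lay on the old side in 8 of 8 cases (summed signal 105140 old, 6091 young), and their part in the Ddit3 and Herpud1 values was not tested.

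**Figure D3:**
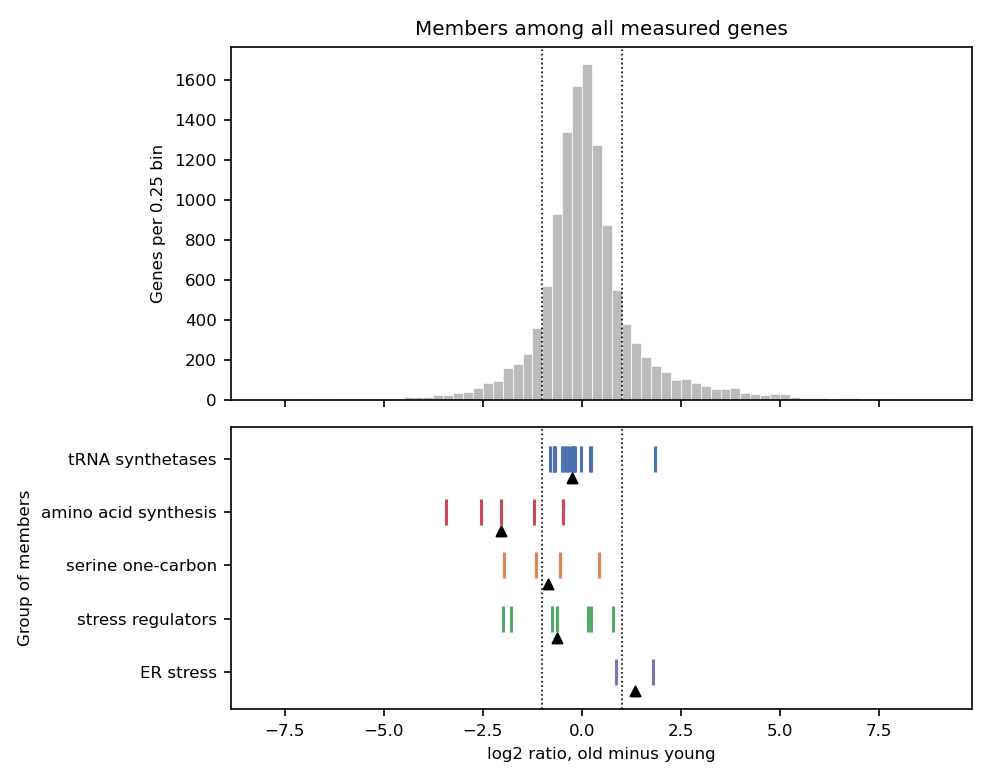
Top, the number of genes in each 0.25 bin of log2 ratio (old minus young) over all 12105 measured genes. Bottom, the members as vertical ticks by group, with triangles at the group medians of -0.25 for synthetases, -2.05 for amino acid synthesis, -0.85 for serine one-carbon enzymes, -0.62 for stress regulators and 1.33 for endoplasmic reticulum stress; dotted lines mark 2-fold.

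Other genes of the same pathways, from lists written by function, are compared with the members next. Over all measured genes 16.0% were called toward the old array and 11.3% toward the young, the shares to set beside each count. Of 15 measured mitochondrial synthetases, which charge transfer RNA inside mitochondria, 0 were called toward the old array and 1 toward the young, and 13 had a ratio below 0 (median -0.32). Nars2 had 266 in old and 590.1 in young cells (2.22-fold higher on the young), followed by Yars2 (-0.84), Lars2 (-0.63, with its other probe set at 0.78) and Wars2 (-0.42). Scaffold and helper genes of the synthetases had a median of -0.33, with 7 of 7 below 0. Aimp1 (-0.79), Eef1e1 (-0.34) and Aimp2 (-0.33), the scaffold proteins of the complex, were within 2-fold. Tarsl2, a second threonyl-tRNA synthetase, was below the floor on the old array and at least 4.78-fold higher on the young.

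In a list of eIF2alpha kinases and phosphatases with subunits of eIF2 and of its exchange factor, 3 of 14 genes were called toward the old array and 0 toward the young (median 0.16). The old-side count lay near the share of all measured genes, 16.0%, and the young-side share of all genes was 11.3%. Ppp1r15a, the stress-induced phosphatase subunit GADD34 that ends the response, had 8998 in old and 616 in young cells, 14.6-fold higher on the old. Impact, an inhibitor of the amino acid sensing kinase GCN2, was 3.10-fold higher on the old array, and Eif2ak4, which encodes GCN2, 2.09-fold. Under other settings the old-side count was 2 or 3 at 2-fold, and 1 of the 14 was called toward the young array on the values as deposited, with quantile normalization, without shared-sequence probe sets, and with the mean over probe sets. Eif2b2, a subunit of the exchange factor for eIF2, had a ratio of -0.90 with probe sets from -1.55 to 0.18.

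Further ATF4 partners and targets split even more widely, with 5 of 20 called toward the young and 4 toward the old array (median 0.21, SD across genes 1.90). On the young side were Vldlr, a lipoprotein receptor gene (17.4-fold), Stc2, which encodes a secreted glycoprotein (7.27-fold), and Slc6a9, a glycine transporter gene (6.47-fold). On the old side was Atf3, a stress and early-response transcription factor that is also an immediate early gene, with 5337 in old and 326 in young cells (16.4-fold). The other calls, named after their values were seen, were the vessel growth factor gene Vegfa (4.30-fold) and the cystine transporter gene Slc7a11 (at least 2.09-fold) on the young side. On the old side were Slc7a5 (6.09-fold) and Slc3a2 (3.94-fold), the paired chains of a leucine transporter, and Cth (at least 2.11-fold), a cysteine synthesis gene. Other amino acid transporter genes of the list, Slc7a1 (-0.78), Slc38a2 (-0.11), Slc1a4 (0.15) and Slc1a5 (0.48), were within 2-fold. Slc7a3 was below the floor on both arrays. The transporter genes thus had no common direction.

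**Figure D4:**
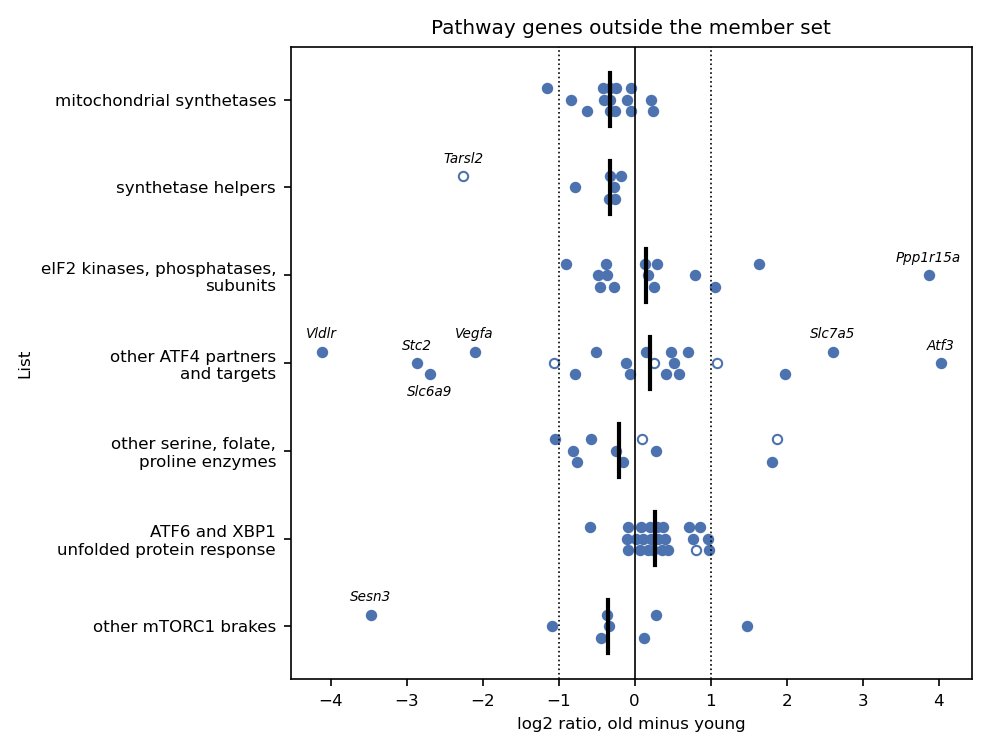
log2 ratio (old minus young) of the measured genes of 7 pathway lists that hold no members, 1 point a gene, with black bars at the list medians, open circles for genes below the floor on 1 array (lower bounds of the difference) and dotted lines at 2-fold. The unfolded protein response list is drawn within 2-fold, but the value of Derl3 (0.81) is a lower bound of the difference. Both synthetase lists stay within 2-fold apart from Nars2 (-1.15) and Tarsl2 (-2.26, a lower bound of the difference). The ATF4 list runs from -4.12 (Vldlr) to 4.03 (Atf3).

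Other serine, folate and proline enzymes had 2 of 10 measured genes called toward the old array and 1 toward the young (median -0.20). Both counts lay near the shares of all measured genes, 16.0% and 11.3%. Aldh1l1 and Aldh1l2, the cytosolic and mitochondrial enzymes that oxidise the folate one-carbon unit, were on the old side (3.51-fold and at least 3.65-fold), opposite to Mthfd2 and Shmt2. Gcsh, a carrier of the glycine cleavage system, was 2.07-fold higher on the young array, and Srr, serine racemase, had a ratio of -0.81. Gldc and Tyms were below the floor on both arrays. Aldh1l1 is well known from liver, and 8 of 8 hepatocyte markers were on the old side. Their part in the Aldh1l1 value was not tested.

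Targets and sensors of the unfolded protein response leaned to the old side without a call, 0 of 24 in either direction. Of the 24, 20 had a ratio above 0 (median 0.27), as had 6322 of all 12105 measured genes. The size of this lean depended on the normalization. The list median was 0.14 on the values as deposited, 0.16 with loess and 0.04 with quantile normalization. The medians of all measured genes under these settings were -0.09, 0.03 and -0.09. The chaperone gene Hspa5 (19073 old, 9697 young, 1.97-fold) and Sdf2l1 (1.95-fold) lay just under the rule, then the sensor gene Atf6 (0.87) and Derl3, at least 1.75-fold. With loess, with the lower floor, and with a constant added before log2, 1 of the 24 was called toward the old array. Apart from Derl3, whose value is a lower bound, each of these genes differed by less than Herpud1 with its 3.45-fold. Among 8 other brakes on mTORC1, Sesn3 was 11.1-fold and Ddit4l 2.13-fold higher on the young array, and Deptor 2.79-fold on the old, with Tsc2 at -0.44. The probe sets of Deptor ran from -0.10 to 1.48, and 0 genes of the list were called toward the old array with the mean over probe sets or the floor at the 75th percentile. Toward the young array 1 gene in place of 2 was called under both of these, with loess, and with a constant added before log2.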

How the data were processed

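RNA of sorted lung vascular cells was hybridised to 1 one-colour Affymetrix array per age group. The authors deposited linear MAS5 signal intensity, 1 value per probe set (GCOS 1.4 and MAS5, per the submitters' processing notes). Both arrays had a trimmed mean of 500.003, with 2% cut from each tail. Scanner images and detection calls were not used here, and no genome build is given for the values.

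Of 45101 probe sets, 64 controls were left out. The platform annotation of 2016 gave 1 gene symbol to 34958 probe sets, several to 932 and none to 9211, and only single symbols were used. All 37 member genes matched RefSeq by Entrez identifier. Arrays were scaled by 1.05 (old) and 0.956 (young), which set the median log2 ratio of probe sets above each array's median to 0 (it was -0.13 on the deposited intensity values). The floor was the higher of the scaled medians over non-control probe sets, 73.7. Of several probe sets for a gene, the brightest by mean log2 signal stood for it. A gene above the floor on at least 1 array was measured, and where the other value was below the floor the floor took its place, which gives a lower bound. The 3' to 5' signal ratio was 1.32 (old) and 1.20 (young) for Actb and 0.718 and 0.806 for Gapdh.

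With 1 array a group no test was run and no p-value is given. The procedure was run on simulated data, with differences larger than 2-fold planted in genes well above the floor. Its noise was the probe-set SD, so it does not cover differences between mice, cell content or dim genes. The members, lists and rules were chosen with earlier results of these data known. Every member is named, and of each pathway list the 4 measured genes with the largest absolute ratio; other named genes were chosen after their values were seen. Marker and pathway lists were written by function, apart from the interferon gamma list and the split by synthetase complex, which came after the values. Alternatives were the values as deposited, quantile normalization, loess (span 0.4), floors at the 25 and 75 percentiles, 0.5 of the floor added before log2, the mean over probe sets, no shared-sequence probe sets, and fold rules of 1.5 and 3. Python 3.11.15, numpy 2.4.6, pandas 2.3.3, statsmodels 0.14.6 and matplotlib 3.10.9 were used. The motif sites of 1 member gene are not reported here.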

Additional observations from a re-analysis of the deposited data

How the results depend on the processing

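Values as deposited and quantile normalization moved the median of all measured genes from 0.03 to -0.09 in both, and the synthetase median from -0.25 to -0.38 and -0.29. Of the 10 called members, 6 were called the same way in every alternative that gave a value at 2-fold, and no member within 2-fold became called. Phgdh gave no value without shared-sequence probe sets, since all its probe sets are of that kind. Mthfd2 (-0.39) and Trib3 (-0.76) lost the call with the floor at the 75th percentile, Aldh18a1 (-0.90) and Shmt2 (-0.81) with the mean over probe sets, and Shmt2 (-0.71) without shared-sequence probe sets. The synthesis median was -1.36 with the floor at the 75th percentile, where the higher floor limits the size of ratios of dim genes. With the 1.5-fold rule 14 members were called toward the young and 4 toward the old array, 4 of them synthetases on the young side. Psat1 ran from -3.08 to -1.36 and Wars from 1.09 to 1.91 over the alternatives. Of 293 member values under alternatives, 284 moved by less than the probe-set SD, 9 by more, and 0 called values changed sign. Among members within 2-fold, 5 changed sign in at least 1 alternative. No paired analysis was possible because each group has 1 array.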

Other observations

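Probe sets that name a member together with another gene were left out of the counts above. The probe set shared by Aars and Exosc6 had 757 in old and 1328 in young cells (1.76-fold higher on the young), further from equal than both probe sets of Aars alone (1.16-fold and 1.43-fold). The probe set listed for Phgdh and Gm8096 was 17.9-fold higher on the young array, against 5.39-fold to 11.9-fold for the single-symbol Phgdh probe sets.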
